A study of Mus musculus with 8 samples.

Results

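The genes described here make acetyl-CoA from citrate or acetate, carry acetyl groups or their precursors between compartments, or place them on carnitine and aspartate. They are Acly, Acss1, Acss2, Slc25a1, Crat, Slc33a1 and Nat8l, 7 of the 56980 gene IDs in the deposited count table, taken by name, with earlier results of these data known. All 7 were among the 18905 genes with enough counts to be tested. RNA was measured in 8 libraries of cultured mouse oligodendrocyte progenitors, the dividing precursors of myelin-forming cells. PDGFRα-positive cells had been captured on antibody-coated dishes from the cortex of wild-type C57BL/6 pups of either sex at postnatal day 6 to 8. Low glucose (LG) cultures were lowered by medium exchange to 12.5 mM after day 1, 5 mM after day 2 and 2.5 mM glucose after day 3. High glucose (HG) cultures stayed at 25 mM. Each group has 4 libraries, all harvested on day 5. Both groups had grown with the mitogens bFGF (20 ng/mL) and PDGF-AA (10 ng/mL), and bFGF was then washed out while PDGF-AA stayed. Libraries with the same number in LG and HG share a code in their deposited labels, and numbers 1 and 2 share one with each other. The code is read here as the preparation, which the labels do not state. On that reading the 4 pairs come from 3 preparations.

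Acetyl-CoA is made in mitochondria and cannot cross the inner membrane. Cells export it as citrate through the carrier encoded by Slc25a1, and ATP citrate lyase (Acly) splits the citrate to acetyl-CoA in the cytosol and nucleus. Acetate gives a second route, through the acetyl-CoA synthetases Acss2 in the cytosol and nucleus and Acss1 in mitochondria. Crat encodes carnitine acetyltransferase, which moves acetyl groups onto carnitine, Slc33a1 encodes the carrier that brings acetyl-CoA into the endoplasmic reticulum, and Nat8l encodes the enzyme that makes N-acetylaspartate from aspartate and acetyl-CoA. In the brain N-acetylaspartate is known as a store of acetyl groups for myelin lipids, and cytosolic acetyl-CoA feeds fatty acid synthesis, sterol synthesis and histone acetylation.

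The promoter windows of the enzymes at the head of the citrate route and the acetate route, Acly and Acss2, are shown because the contrast between both routes runs through the results. Each is the 250 bases before the start site in RefSeq on GRCm38.p6, read on the gene's strand, which had an entry for 5 of the 7 genes. Capitals mark GC boxes (GGGCGG) and CCAAT boxes (CCAAT) on either strand, which do not overlap each other here.
Acly (chr11:100528001-100528250, minus strand): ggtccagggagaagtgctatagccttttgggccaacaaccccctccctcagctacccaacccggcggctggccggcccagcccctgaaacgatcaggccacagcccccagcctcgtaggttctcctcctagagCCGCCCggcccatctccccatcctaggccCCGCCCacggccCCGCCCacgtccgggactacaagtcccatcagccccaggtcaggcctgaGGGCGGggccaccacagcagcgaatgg
Acss2 (chr2:155517793-155518042, plus strand): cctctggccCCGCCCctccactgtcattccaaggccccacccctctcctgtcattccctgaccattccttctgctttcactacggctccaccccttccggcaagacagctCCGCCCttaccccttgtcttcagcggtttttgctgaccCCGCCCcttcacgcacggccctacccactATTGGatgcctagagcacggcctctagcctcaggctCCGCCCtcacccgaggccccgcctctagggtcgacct
The Acly window held 4 GC boxes and the Acss2 window 4 GC boxes and 1 CCAAT box. A GC box was present in 4 of the 5 windows and in 32.7% of the 32851 promoter windows of this length, and a CCAAT box in 3 of the 5 and in 33.8% of all. The sterol regulatory element core searched as TCACNCCAC was in 0 of the 5 and in 1.05% of all, and the E-box CACGTG was in 2 of the 5, Slc25a1 and Slc33a1, and in 6.02% of all. These are matches of letters only. The gene positions given below come from another annotation, GENCODE M21, whose starts differ from RefSeq for Acss1, Acss2 and Slc33a1. By those positions the Acss1 window lies inside the gene, and the Acss2 and Slc33a1 windows run into theirs.

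Per exon length, Acly RNA stood far above Acss2 RNA in every library. In reads per 1000 annotated exon bases and per 1000000 counts (RPKM), Acly averaged 73.5 ± 8.45 RPKM over the 8 libraries (SD), Slc25a1 36.1 ± 2.80, Acss1 29.5 ± 2.50, Nat8l 9.64 ± 1.05, Crat 6.96 ± 0.615, Slc33a1 6.63 ± 0.452 and Acss2 5.33 ± 0.243 RPKM. The ranges of Slc25a1 and Acss1 overlapped, as did those of Nat8l and Crat and those of Crat and Slc33a1. Within every library, however, Slc25a1 stood above Acss1 and Nat8l above Crat by this exon length. Crat and Slc33a1 changed order between libraries, at 7.57 and 5.94 RPKM in LG library 1 and 6.63 and 7.30 RPKM in LG library 4. Acly was 13.7 ± 2.19 times Acss2 in LG and 14.0 ± 2.09 times in HG (SD, n = 4 each). The size of that ratio depends on the length used, since the annotation gives Acss2 10163 exon bases in all but 3609 in its longest transcript. With the longest transcript the ratio was 5.81 in LG and 5.92 in HG, and Acss2, at 15.0 RPKM, stood above Nat8l, Crat and Slc33a1. The mitochondrial synthetase Acss1 was 5.71 ± 0.651 times Acss2 in LG and 5.37 ± 0.350 times in HG (SD, n = 4 each), or 2.31 and 2.18 times with the longest transcripts.

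**Figure D1:**
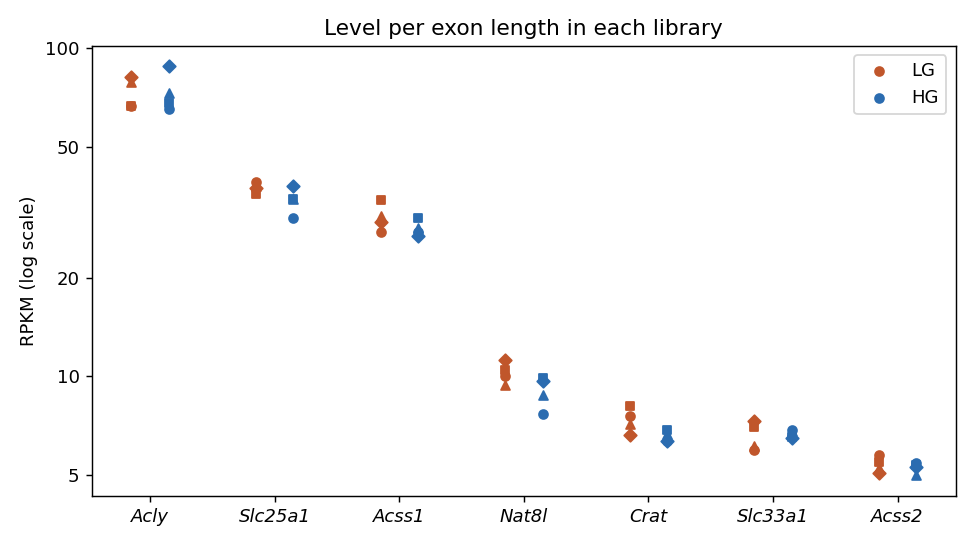
Level of each gene per exon length (RPKM, log axis) in the 8 libraries, LG left of HG for each gene and genes ordered by their mean; circles, squares, triangles and diamonds are numbers 1 to 4. Acly lies between 65.2 and 88.1 RPKM and Acss2 between 4.99 and 5.77 RPKM, and the LG and HG points of each gene overlap.

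None of the 7 genes passed the test of LG against HG. With the replicate number as a block, edgeR's quasi-likelihood test gave 0 of 7 a Benjamini-Hochberg adjusted p under 0.05, beside 79 of 18905 genes tested, or 0.418% (0.111% higher and 0.307% lower in LG). At an unadjusted p under 0.05 there were 2 of 7, Crat and Nat8l, against 13.4% of all genes. DESeq2 and limma-voom with the block also called 0 of 7, with 2 at an unadjusted p under 0.05 in each. Without the block 0 of 7 and 0 of 18905 genes passed, and 0 of 7 had an unadjusted p under 0.05. The LG and HG libraries overlapped for all 7 genes, while 2.89% of all genes had groups that did not overlap. With offsets for GC content and length added to the block, 0 of 7 passed, against 0.799% of all genes, and 1 of 7, Nat8l, had an unadjusted p under 0.05. The log2 fold changes of LG over HG were positive for 6 of 7, with a median of 0.11, and positive for 50.4% of all genes, with a median of 0.0015. With the offsets 6 of 7 were positive with a median of 0.047, and 55.8% of all genes with a median of 0.021. The preparation of numbers 1 and 2 holds 2 LG and 2 HG libraries, and within it, a comparison added after the data were seen, 0 of 7 passed with the block (lowest edgeR adjusted p = 0.232, for Crat). There the log2 fold changes were 0.25 for Crat, 0.23 for Nat8l, 0.21 for Slc25a1, 0.091 for Acss1, 0.056 for Acss2, 0.0024 for Acly and -0.047 for Slc33a1.

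**Figure D2:**
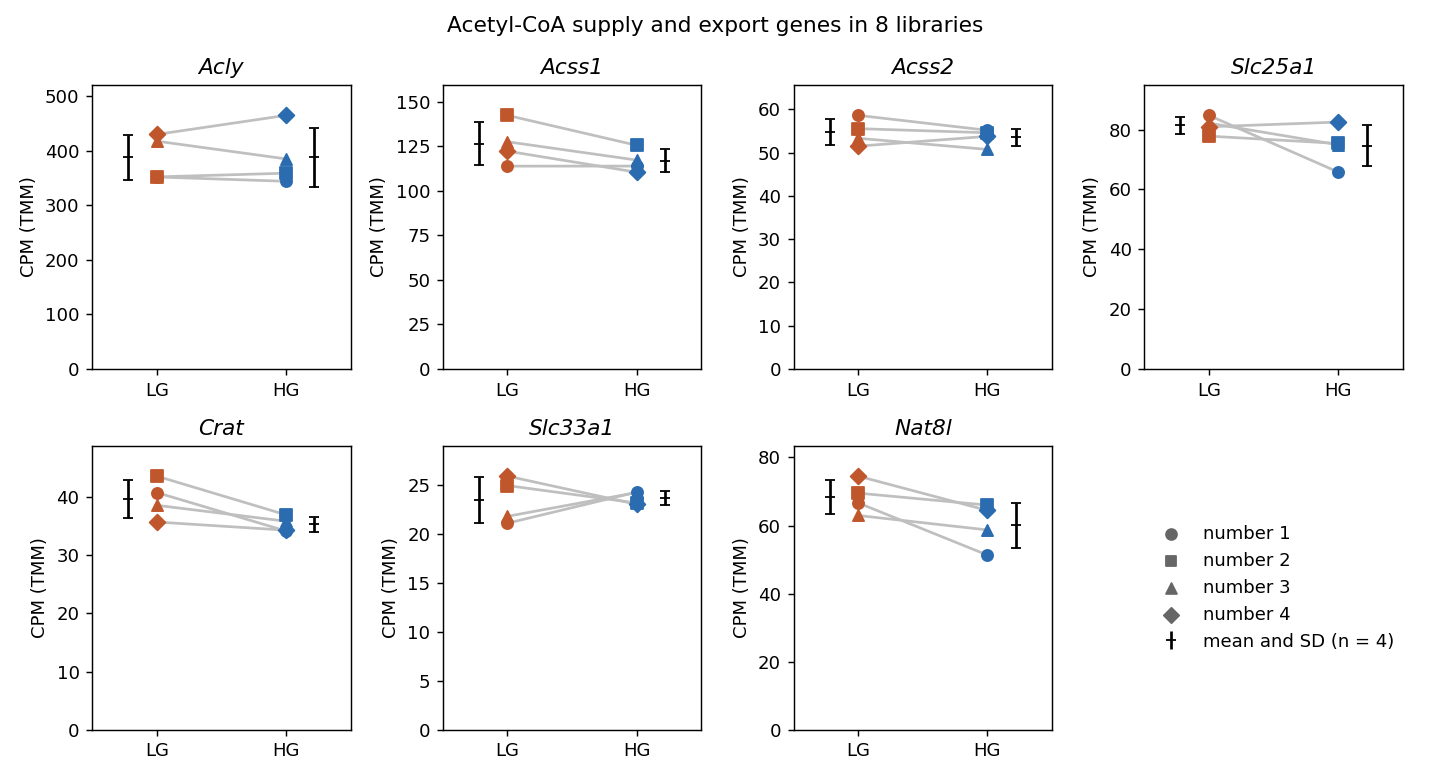
Normalised counts (CPM) of the 7 genes in LG and HG, with grey lines joining libraries of the same number and black bars for the mean and SD (n = 4). For Crat and Nat8l the LG point lies above its HG partner in all 4 pairs. Acly, Acss2, Slc33a1 and Slc25a1 have lines in both directions, and so has Acss1, with pair 1 almost level.

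Acly (ENSMUSG00000020917, GRCm38 chromosome 11, 100476353 to 100528000) had 352, 352, 418 and 430 CPM in LG libraries 1 to 4, against 344, 359, 385 and 465 CPM in HG libraries 1 to 4. The groups cover almost the same range, and the pairs split evenly, with 2 of 4 higher in LG. Its log2 fold change was 0.0023 (SE 0.062, edgeR adjusted p = 0.992), a difference of 0.158% with a 95% interval from -8.86% to 10.1%. The sign of so small a value turned with the fit and was negative without the block, at -0.0012.

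The carrier that feeds Acly with citrate, Slc25a1 (ENSMUSG00000003528, chromosome 16, 17925223 to 17928219), had 84.7, 77.8, 82.2 and 80.9 CPM in LG, against 65.8, 75.4, 74.9 and 82.5 CPM in HG. HG library 1 was the lowest of the 8, and pair 1 differed by 0.36 on the log2 scale, against 0.046, 0.13 and -0.028 in pairs 2 to 4. The log2 fold change was 0.13 (SE 0.070, edgeR adjusted p = 0.456), with a 95% interval from -0.025 to 0.28. It came to 0.051 without pair 1 and to 0.047 when GC content and length were entered as offsets. The longest Slc25a1 transcript has a GC content of 59.1%, and across genes the fold change followed GC content at a rank correlation of 0.356 before the offsets and 0.0032 after them, a description over genes that are no independent replicates.

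Of the acetate enzymes, cytosolic Acss2 (ENSMUSG00000027605, chromosome 2, 155517948 to 155585724) had 58.6, 55.6, 53.3 and 51.5 CPM in LG, against 55.2, 54.6, 50.8 and 53.8 CPM in HG. All 8 values lie close together, and 3 of 4 pairs were higher in LG by small amounts. The log2 fold change was 0.030 (SE 0.059, edgeR adjusted p = 0.861), with a 95% interval from -0.099 to 0.16, and 0.047 with the offsets. Acss2 exons share 395 bases with Gss, 335 with Acss2os and 197 with Ggt7 on the other strand. Over all libraries Gss had 6371 counts, Acss2os 19 and Ggt7 21421. Without a stated strand setting, reads of the shared bases cannot be told apart. Mitochondrial Acss1 (ENSMUSG00000027452, chromosome 2, 150618105 to 150668500) had 114, 142, 128 and 122 CPM in LG, against 114, 126, 117 and 110 CPM in HG. Its LG libraries 2, 3 and 4 were above their HG partners, and pair 1 was level at -0.00054 on the log2 scale. The log2 fold change of 0.11 (SE 0.057) had edgeR adjusted p = 0.418 and a 95% interval from -0.012 to 0.24.

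Crat and Nat8l were the 2 genes with higher values in LG in all 4 pairs, a pattern that 10.8% of all genes tested had. Crat (ENSMUSG00000026853, chromosome 2, 30400471 to 30415813), which buffers acetyl-CoA as acetylcarnitine, had 40.8, 43.6, 38.6 and 35.7 CPM in LG, against 34.2, 36.9, 35.8 and 34.3 CPM in HG. The LG libraries sit higher, but LG library 4 lies inside the HG range. The log2 fold change was 0.16 (SE 0.064, edgeR adjusted p = 0.301), with pair differences of 0.26, 0.24, 0.11 and 0.058. With the offsets it was 0.12. Its exons share 411 bases with the antisense gene Gm16323, which had 0 counts, and 59 with Dolpp1, which had 15865 counts over all libraries.

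Nat8l (ENSMUSG00000048142, chromosome 5, 33995984 to 34005916) had 66.7, 69.5, 63.0 and 74.5 CPM in LG, against 51.3, 66.0, 58.7 and 64.4 CPM in HG. HG library 1 was the lowest here too, and the pair differences were 0.38, 0.075, 0.10 and 0.21 on the log2 scale. The log2 fold change was 0.19 (SE 0.065, edgeR adjusted p = 0.242), or 14.1%, with a 95% interval from 3.26% to 26.1% that takes no account of the number of genes tested. It was 0.13 with the offsets, where the edgeR adjusted p was 0.318, and 0.13 without pair 1. Its longest transcript has a GC content of 59.1%. Nat8l is best known from neurons. The summed CPM of the 8 neuron markers ran from 57.9 to 73.4 in LG and from 52.3 to 73.6 in HG (exact permutation test, two-sided, p = 0.486). It was higher in LG in 3 of 4 pairs (exact sign permutation test over pairs, two-sided, p = 0.25). Most of the sum came from Tubb3 at 33.9 CPM and Syt1 at 16.2 CPM on average, and 3 of the 5 tested markers were positive. Their part in the Nat8l value was not tested. In such bulk samples, more cells of a type and more RNA per cell cannot be told apart.

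Slc33a1 (ENSMUSG00000027822, chromosome 3, 63933507 to 63964768) had 21.1, 24.9, 21.8 and 25.9 CPM in LG, against 24.3, 23.1, 24.2 and 23.0 CPM in HG. LG libraries 1 and 3 were below all 4 HG libraries and LG libraries 2 and 4 above them, so the LG values enclose the HG values. The log2 fold change was -0.018 (SE 0.081, edgeR adjusted p = 0.945), with a 95% interval from -0.20 to 0.16, and 0.038 with the offsets. The antisense gene Gm26850 covers 32.0% of its exon bases and had 96 counts in the whole table.

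**Figure D3:**
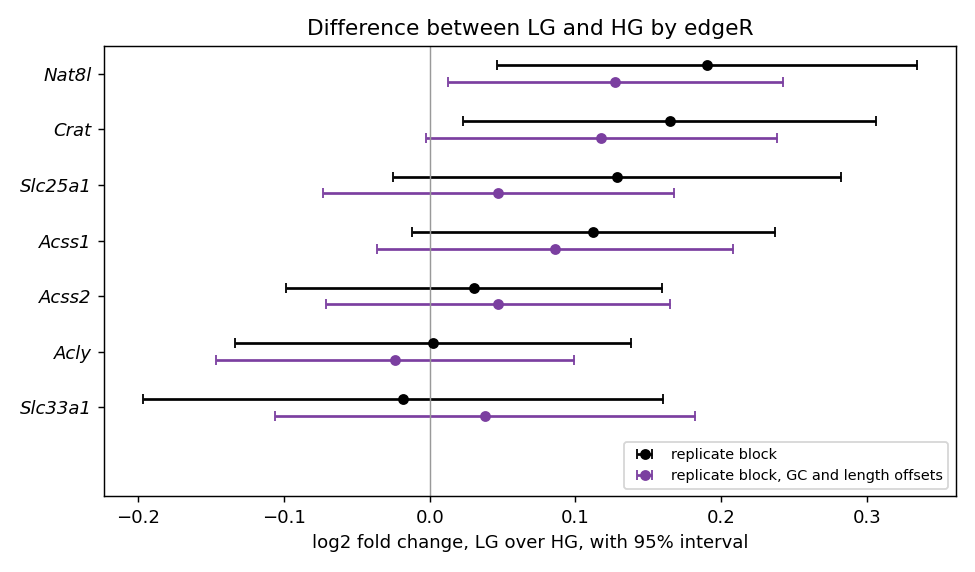
Log2 fold change of LG over HG with 95% interval for each gene, from edgeR with the replicate block (black) and with GC and length offsets as well (purple). Both intervals of Acly, Acss2, Slc33a1, Acss1 and Slc25a1 span 0, and so does that of Crat with the offsets. Slc25a1 moves from 0.13 to 0.047 with the offsets.

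Over the pairs, 5, 6, 6 and 4 of the 7 genes were higher in LG in pairs 1 to 4, where 50.0%, 51.5%, 50.7% and 48.2% of all genes were. The median difference of the 7 lay between 0.058 in pair 4 and 0.11 in pair 3. The 7 genes had between 1112 counts (Slc33a1) and 29128 counts (Acly) per library, for which counting alone gives a relative error of 3.00% and 0.586%.

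Acly differed between replicate numbers. Its 4 libraries numbered 1 and 2 lay between 344 and 359 CPM. Its 4 libraries numbered 3 and 4 lay between 385 and 465 CPM, with no overlap. The share of all genes with such a split was not counted. The first principal component, the main axis of variation between libraries (47.1% of the variance), separated the same libraries. In the test of the replicate number, which leaves the glucose difference aside, Acly passed (edgeR adjusted p = 0.0324) and the other 6 genes did not, so 1 of 7 was called, against 20.5% of all genes tested. The call rests on few libraries: leaving out pair 1 gave an edgeR adjusted p of 0.0740, pair 2 of 0.13, pair 4 of 0.0699 and pair 3 of 0.0306. Between numbers the mean of LG and HG ranged over 0.36 on the log2 scale for Acly, 0.24 for Nat8l, 0.23 for Acss1, 0.20 for Crat, 0.13 for Slc25a1, 0.13 for Acss2 and 0.11 for Slc33a1. The SD over numbers was 0.17 for Acly and 0.060 for Acss2, beside a median of 0.18 over all genes tested. Some of the marker sums part the libraries in the same way, and others do not. Progenitor markers summed to 8378 to 9445 CPM in numbers 1 and 2 and to 11080 to 11770 CPM in numbers 3 and 4, higher in the same libraries as Acly. In the other direction, astrocyte markers summed to 1742 to 1922 CPM in numbers 1 and 2 and to 662 to 833 CPM in numbers 3 and 4, and mature oligodendrocyte markers to 152 to 192 CPM in numbers 1 and 2 and 43.8 to 59.6 CPM in numbers 3 and 4. Fibroblast and mural markers summed to 4.36 to 7.18 CPM in numbers 1 and 2 and to 1.76 to 2.10 CPM in numbers 3 and 4. The sums for neurons, microglia and endothelium overlapped between numbers 1 and 2 and numbers 3 and 4. The part of these markers in the Acly values was not tested.

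Among 10117 other genes of at least 10 CPM on average, those with levels most like Acly over the 8 libraries were Ppp1r18 (Pearson r = 0.985), Klhl18 (0.980) and Akap1 (0.979), the last an anchor of protein kinase A at mitochondria. Those most like Acss2 were Antxr1 (0.981), Ccn1 (0.955) and Capn2 (0.948), which encode a matrix receptor, a secreted matrix protein and a calpain protease. The 8 libraries share 3 preparations, so these are descriptions of a common pattern over libraries. Between the members, Acly and Acss2 had r = -0.57 and Slc25a1 and Nat8l r = 0.76 over the same 8 libraries.

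No other gene of the pathway passed in LG against HG. Of 80 further genes in 10 lists, 76 were tested and 0 passed by edgeR with the block in either direction, before and after the offsets. At an unadjusted p under 0.05 there were 9, or 11.8%, beside 13.4% of all genes. In the test of the replicate number 21 of the 76 passed, or 27.6%, beside 20.5% of all genes. For these genes the value with the offsets is added where it differs in sign or by over 1.5 times.

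Upstream of citrate export, 0 of 9 genes for pyruvate entry, pyruvate dehydrogenase and the first citrate steps passed, 5 of 9 were positive, and their median log2 fold change was 0.037. None of the 9 passed for replicate number. Citrate synthase (Cs) averaged 386 ± 25.5 CPM in LG and 376 ± 14.5 CPM in HG and the dehydrogenase subunit gene Pdha1 145 ± 6.29 CPM in LG and 146 ± 5.09 CPM in HG (SD, n = 4 each). Of the carnitine shuttle, to which Crat belongs, 6 of 7 genes were tested and 0 passed, 4 of 6 being positive, with a median of 0.12. Cpt1c was at 0.11 (0.048 with the offsets), the carnitine carrier gene Slc25a20 at 0.13 and the peroxisomal octanoyltransferase gene Crot at -0.095 (-0.030 with the offsets). In this list 3 of 6 passed for replicate number, beside 20.5% of all genes, among them Cpt1a with the lowest adjusted p by edgeR at 8.7e-08.

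Fatty acid synthesis, the main user of cytosolic acetyl-CoA, had 0 of 9 genes called, 6 of 9 positive and a median of 0.022 (0.035 with the offsets), while 4 of 9 passed for replicate number. The desaturase genes Scd2 and Scd1 were at 0.075 and 0.022, the second at 0.053 with the offsets. The synthase gene Fasn was at 0.031 (0.015 with the offsets), with 749 ± 37.9 CPM in LG and 737 ± 90.5 CPM in HG (SD, n = 4 each). That positive value comes from pair 1, which differed by 0.29, while pairs 2 to 4 were lower in LG at -0.054, -0.063 and -0.048. Elovl6, a fatty acid elongase gene picked out after its values were seen, was at -0.36 (edgeR adjusted p = 0.138), with 130 ± 23.7 CPM in LG and 166 ± 12.6 CPM in HG, and DESeq2 called it lower (adjusted p = 0.0100). Its pairs differed by -0.72, -0.39, -0.30 and -0.033, and without pair 1 it was at -0.24 (edgeR adjusted p = 0.39). Sterol synthesis and LDL uptake had 0 of 16 called, 4 of 16 positive, where 50.4% of all genes were, and a median of -0.041, and 4 of 16 passed for replicate number. Hmgcs1, which takes acetyl-CoA into the mevalonate route, was at -0.20 (edgeR adjusted p = 0.293; -0.13 with the offsets), with 439 ± 65.4 CPM in LG and 507 ± 100 CPM in HG, while the thiolase gene Acat2 was at -0.025. The list of sterol regulation, Srebf1, Srebf2, Scap, Mbtps1 and Mbtps2, had 0 of 5 called, 4 of 5 positive and a median of 0.053. With the offsets the median was 0.0074 and 3 of 5 were positive. Targets of the factors encoded by Srebf1 and Srebf2 include Acly, Acss2 and Slc25a1 in other tissues. Srebf2 was at 0.081 and at 0.0074 with the offsets, and its pairs differed by 0.31, 0.0037, -0.0077 and 0.020, so the value comes from pair 1. Its activating protease gene Mbtps1 was at 0.087. Srebf1 was at 0.040 and turned to -0.044 with the offsets. For replicate number 2 of 5 passed.

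Genes that handle N-acetylaspartate beside Nat8l had 0 of 10 called, 4 of 10 positive and a median of -0.044 (-0.012 with the offsets), and 5 of 10 passed for replicate number. The aspartate suppliers Got2 and Slc25a12 were at 0.12 and -0.058, and at 0.073 and -0.0015 with the offsets. Rimklb, which joins N-acetylaspartate to glutamate, was at 0.080 and at 0.16 with the offsets. Aspa, the enzyme of mature oligodendrocytes that frees acetate from N-acetylaspartate, had 32 counts over the 4 LG libraries and 46 over the 4 HG libraries, or 0.137 ± 0.138 CPM in LG and 0.216 ± 0.251 CPM in HG (SD, n = 4 each), against 16372 counts in LG and 13609 in HG for Nat8l. Folh1 and Naalad2, which split the glutamate conjugate, were at 1.05 and 0.165 CPM on average. The Nat8 family genes that could be tested, 4 of 5, had 0 called, 3 of 4 positive and 2 of 4 called for replicate number, with Nat8f1 at 0.095 and 7.38 CPM on average, while Nat8f2 and Nat8f3 averaged 0.262 and 0.171 CPM.

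Coenzyme A synthesis and transport had 0 of 9 called in LG against HG and 0 of 9 for replicate number. Its median was -0.039 with 3 of 9 positive, and turned to 0.0097 with 5 of 9 positive with the offsets. The pantothenate kinase genes Pank3 and Pank2 were at -0.14 and -0.036, and at 0.0096 and -0.015 with the offsets. The last enzyme of the route, Coasy, was at 0.15 and at 0.081 with the offsets. Carriers of acetate, monocarboxylates and citrate had 0 of 5 called, 3 of 5 positive and a median of 0.062 (0.097 with the offsets), and 1 of 5 passed for replicate number. Bsg, a chaperone of some of these carriers, was at 0.17 (0.097 with the offsets). The carrier gene Slc16a1 was at 0.062 (0.14 with the offsets), and Slc16a7 was at -0.072 and turned to 0.14 with the offsets. Of 5 further acetyl and acetoacetyl enzymes 3 were tested and 0 passed in LG against HG or for replicate number, with Acat1 at 0.0073 (0.053 with the offsets), Aacs at -0.0012 (-0.077 with the offsets) and Acot8 at 0.14. The mitochondrial synthetase gene Acss3 had 27 counts over the 4 LG libraries and 36 over the 4 HG libraries and was not tested.

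**Figure D4:**
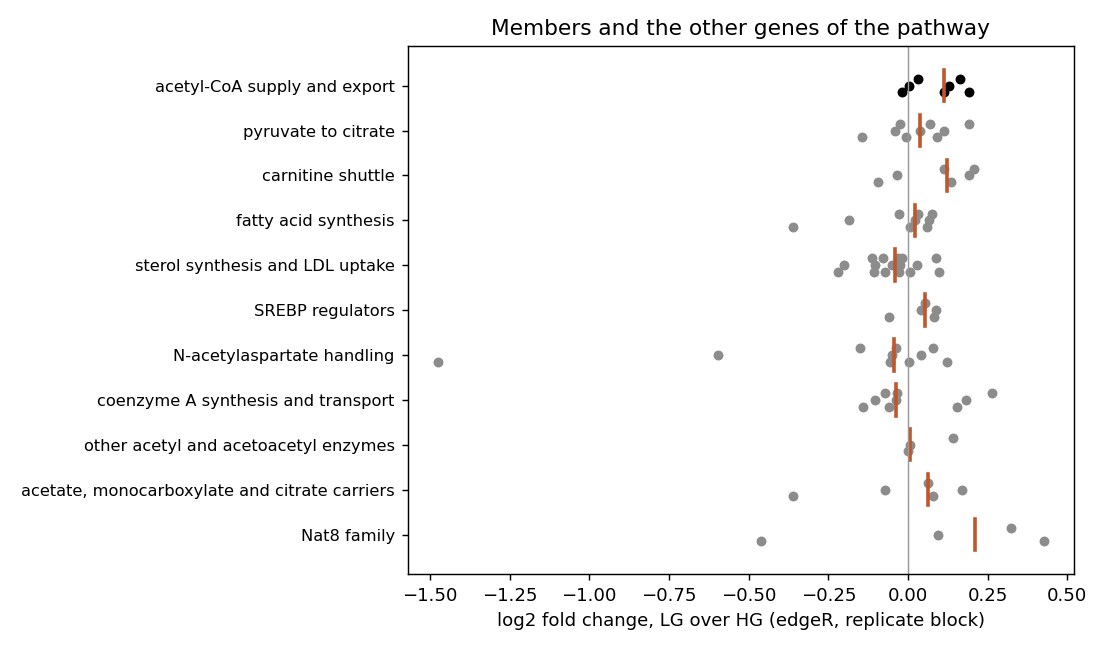
Log2 fold change of LG over HG for the 7 acetyl-CoA supply and export genes (black) and the tested genes of 10 further lists (grey), with the median of each list as an orange line. The 7 genes lie between -0.018 and 0.19, and the point farthest left is Naalad2 at -1.48, a gene of 0.165 CPM that did not pass.

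Libraries held 53869166 to 65733928 counts in LG and 50864130 to 61915909 in HG (exact permutation test, two-sided, p = 0.543). All 7 progenitor markers were above 1 CPM and summed to 8771 to 11773 CPM in LG and 8378 to 11624 CPM in HG, led by Ptprz1 at 2497 CPM and Olig1 at 2464 CPM. Of other cell types, the most abundant marker was Slc1a3 for astrocytes at 435 CPM, Mbp for mature oligodendrocytes at 63.0, Tubb3 for neurons at 33.9, Vwf for endothelium at 3.57 and Pdgfrb for fibroblasts and mural cells at 2.38 CPM, while Cx3cr1, Itgam and Cldn5 had 0 counts in all libraries. Endothelial markers summed to 6.04 to 7.41 CPM in LG and 5.06 to 6.70 CPM in HG, and microglia markers to 11.4 to 15.1 CPM in LG and 10.6 to 13.9 CPM in HG. Both were higher in LG in 4 of 4 pairs (exact sign permutation test over pairs, two-sided, p = 0.13 each, the smallest that 4 pairs allow). For the other cell types the exact p over pairs lay between 0.25 and 1. The part of these markers in the values above was not tested.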

How the data were processed

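RNA of LG and HG cultures was sequenced from libraries made with an mRNA kit from 100 ng of total RNA, as paired-end reads of 150 bp. The values are unnormalized counts for each Ensembl gene ID as deposited. Per the submitters' processing notes the tools were STAR, featureCounts, CASAVA 1.8.2 and DESeq2 and the build mm10, without a stated role for any. Neither strand setting nor annotation release was given in the sources used here. Symbols, positions and lengths come from GENCODE M21 of GRCm38, which matched 52125 of 56980 IDs. It gave a GC content for 97.5% of the tested genes.

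The main test was that of edgeR 4.0.16 in R 4.3.3 (filterByExpr, TMM, robust quasi-likelihood test, Benjamini-Hochberg adjustment over all 18905 genes, threshold 0.05). The replicate number was a block. Its pairing follows the replicate numbers in the sample titles. Same-numbered libraries share the label code that is read here as the preparation. Numbers 1 and 2 have the same code, so the codes do not set the pairing between these. Same-numbered libraries deviated together at r from 0.448 to 0.625 across genes, against at most 0.419 between different numbers. The spread between libraries of the shared preparation may be technical. CPM used the TMM factors, log2 CPM a prior count of 2, and RPKM the union of annotated exons. SE is the log2 fold change over the root of F, and 95% intervals used the test's degrees of freedom. Offsets removed a smooth trend on GC content and length per library (mgcv 1.9.3). DESeq2 1.42.0 and limma 3.58.1 were other tools. No library repeats another of its group (lowest chi-square 17.2 per degree of freedom). The test was checked on simulated data with changes set in 50 genes of each size. With the block it called 32% of 1.2-fold and 100% of 1.4-fold changes, and without the block 0% and 26%. All 7 genes differed by less than 1.2-fold, at most by 14.1% (Nat8l), so changes of their size would often be missed.

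Each list's called genes and its 3 most abundant tested genes were named, with the 3 genes most like Acly and Acss2; a few are not reported here. The members and lists were chosen with earlier results of these data known.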

Additional observations from a re-analysis of the deposited data

Results flagged for a closer look

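Of 86 groups of 4 libraries, 2 had a library far from the other 3 on the log2 CPM scale, against 4.30 that chance gives at 1 in 20, and neither was a group of the 7 genes. Slc25a20 was highest in HG replicate 4 at 5.47, with the other HG libraries between 5.31 and 5.33. Acot8 was lowest in HG replicate 1 at 2.47, with the other HG libraries between 2.94 and 2.98.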

How the results depend on the processing

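Over 17 alternatives 0 of the 7 genes passed in any, and Acss1, Acss2, Slc25a1, Crat and Nat8l stayed positive in all. Their lowest adjusted p was 0.130, for Crat without pair 4. Acly turned to -0.0012 with no replicate block, -0.0037 with at least 1 CPM in every library and -0.024 with the offsets, and ran from -0.036 to 0.040 with 1 pair left out. Slc33a1 turned to 0.0018 with sums per preparation and 0.038 with the offsets, and ran from -0.083 to 0.043 with 1 pair left out. Of all genes, 79 passed with the block, 0 without it, 1 with the preparation code as block, 17 with sums per preparation, 37 without TMM, 474 by DESeq2, 739 with no filter and 151 with the offsets, and from 0 (without pair 2) to 148 (without pair 4) with 1 pair left out. Within the preparation of numbers 1 and 2, chosen after seeing the data, 208 passed with the block and 0 without it. The cause was not tested. The fatty acid synthesis list had 1 call, Elovl6, by DESeq2, with no filter, within that preparation with the block and without pair 4 (0 to 1 with 1 pair left out). For replicate number, 3883 genes passed, and 2162 to 4088 with 1 pair left out, among them 0 to 1 of the 7. With longest transcripts the levels were 87.7 RPKM for Acly, 33.6 for Acss1, 15.0 for Acss2, 46.8 for Slc25a1, 8.88 for Crat and 7.47 for Slc33a1. The other preparations hold 1 pair each and give no test of their own.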
